A study of Mus musculus with 6 samples.

Results

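The imprinted genes H19, Mest, Peg3, Peg10, Dlk1, Meg3, Grb10, Snrpn, Ndn and Cdkn1c were examined as a set of 10 in mouse cells exposed to trichostatin A (TSA), which inhibits histone deacetylases, or to DMSO. Members were found by matching the RefSeq identifier of every non-control probe on the arrays to these symbols, which gave 17 probes for 9 of the 10 genes, out of 18753 genes named on the arrays. H19 had no probe matched by name and was not analysed here. The remaining members were 6 genes expressed from the paternal allele (Mest, Peg3, Peg10, Dlk1, Snrpn and Ndn) and 3 expressed from the maternal allele (Meg3, Grb10 and Cdkn1c). All 9 were among the 14530 genes tested, and each was well above background on all 6 arrays, so the filter on dim probes removed 0 of them.

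The cells came from embryonic stem cells of 129/Ola mice that had been differentiated on gelatin in serum-free N2B27 medium, and are labelled as day 3 cells. The groups were cells given TSA for 24 h (3 samples) and cells given DMSO for 24 h (3 samples), in 3 experiments described as independent, and the TSA and DMSO samples of the same replicate number shared 1 of 3 slides of single-colour Agilent arrays. The sources used here give no TSA dose, and TSA samples always lay at the same array position of a slide, and DMSO samples at another, so the effects of position and drug cannot be told apart. The arrays measured total RNA of a mixed culture and did not distinguish the parental alleles, so "paternally" and "maternally" expressed refer to what is known of each gene elsewhere, and fewer cells of a type and less RNA per cell cannot be told apart.

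Genomic imprinting restricts expression of certain genes to the allele inherited from one parent. The mark is set in the germ line as DNA methylation at a control region, and it acts over domains in which protein-coding genes and long noncoding RNAs are often expressed from opposite alleles. On the repressed allele, histone deacetylation and other chromatin marks accompany the methylation. Many imprinted genes control growth of the embryo and placenta, and stem cells in culture are known to lose or gain imprints at some of these domains.

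The promoters of Dlk1, Meg3 and Grb10 are shown because Dlk1 and Meg3 share a domain and differed in opposite directions, and because Grb10 is known to use separate promoters for its maternal expression in most tissues and its paternal expression in neurons. The windows are RefSeq sequences of build GRCm38.p6 that run from 250 bases before to 50 bases after a gene's start, written 5′ to 3′ on the gene's strand, and capitals mark matches to TGCCGC, the hexamer bound by the imprint-protecting protein ZFP57, searched on both strands (GCGGCA on the reverse).
Dlk1, chr12:109452573-109452872, plus strand: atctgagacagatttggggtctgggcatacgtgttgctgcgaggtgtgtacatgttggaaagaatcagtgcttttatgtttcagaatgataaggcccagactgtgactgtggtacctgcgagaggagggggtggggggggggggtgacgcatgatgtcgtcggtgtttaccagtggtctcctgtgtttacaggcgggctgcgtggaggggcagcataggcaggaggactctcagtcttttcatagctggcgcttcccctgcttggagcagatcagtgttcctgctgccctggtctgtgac
Meg3, chr12:109540746-109541045, plus strand: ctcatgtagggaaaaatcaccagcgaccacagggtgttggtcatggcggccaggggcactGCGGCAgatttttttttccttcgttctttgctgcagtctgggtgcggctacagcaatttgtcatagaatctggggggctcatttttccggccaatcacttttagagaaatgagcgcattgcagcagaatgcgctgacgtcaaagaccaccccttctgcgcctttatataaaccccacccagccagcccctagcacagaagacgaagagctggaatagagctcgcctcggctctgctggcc
Grb10 first window, chr11:12037371-12037670, minus strand: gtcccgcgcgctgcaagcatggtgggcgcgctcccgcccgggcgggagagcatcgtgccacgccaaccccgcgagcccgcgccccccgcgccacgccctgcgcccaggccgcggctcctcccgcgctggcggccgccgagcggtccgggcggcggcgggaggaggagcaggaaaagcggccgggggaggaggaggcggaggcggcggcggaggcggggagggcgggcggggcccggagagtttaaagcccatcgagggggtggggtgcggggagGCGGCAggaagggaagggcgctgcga
Grb10 second window, chr11:12027922-12028221, minus strand: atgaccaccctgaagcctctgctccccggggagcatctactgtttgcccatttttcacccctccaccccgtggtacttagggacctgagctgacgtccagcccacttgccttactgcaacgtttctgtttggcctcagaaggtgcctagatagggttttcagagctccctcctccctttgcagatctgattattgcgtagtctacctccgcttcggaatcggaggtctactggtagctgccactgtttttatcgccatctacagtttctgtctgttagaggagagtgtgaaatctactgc
The first Grb10 window held 45 CG pairs, a number that 1.93% of all 32851 windows reached, against 9 in its second window. The Dlk1 window held 9 CG pairs and the Meg3 window shown 13, and the median over all windows was 7. A second Meg3 window, chr12:109545148-109545447, held 1 CG pair and 0 hexamers. The hexamer occurred once in the Meg3 window shown and once in the first Grb10 window, and 11.6% of all windows held it. Of 14 windows for the 7 members with a match in the sequence table, 5 held the hexamer, and 4 of the 7 members had it in a window. Of those 5, 2 are Mest windows that overlap almost wholly and hold the same matches. The share of 11.6% counts windows, and the share of all genes with the hexamer in any window was not counted. The hexamer itself contains a CG pair, and 9 of the 14 member windows held more CG pairs than the median.

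No imprinted gene passed the test for a difference between TSA and DMSO. Levels are log2 of the processed signal minus the 75th percentile of the array, so a level of 0 equals that percentile, and differences are TSA minus DMSO with the standard error from limma (3 arrays per group). Of the 9 members, 0 rose and 0 fell (limma, adjusted p under 0.05 over all 28160 tested probes), where 1.36% of all tested genes rose and 0.0551% fell. At an unadjusted p under 0.05, 1 of 9 members passed, Grb10, beside 14.9% of all tested genes. In a fit with the slide as a further term (the blocked fit), 0 of 9 passed, beside 3.34% of all tested genes (3.19% higher), and 4 had an unadjusted p under 0.05, beside 22.9%. The arrays of the treatments did not overlap for 2 of the 9, beside 24.7% of all tested genes, and 6 of the 9 differed the same way in each experiment, beside 54.0%. The lowest adjusted p over all 17 member probes was 0.251, and 0.0843 with the block. The errors without the block also hold level differences between experiments.

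**Figure D1:**
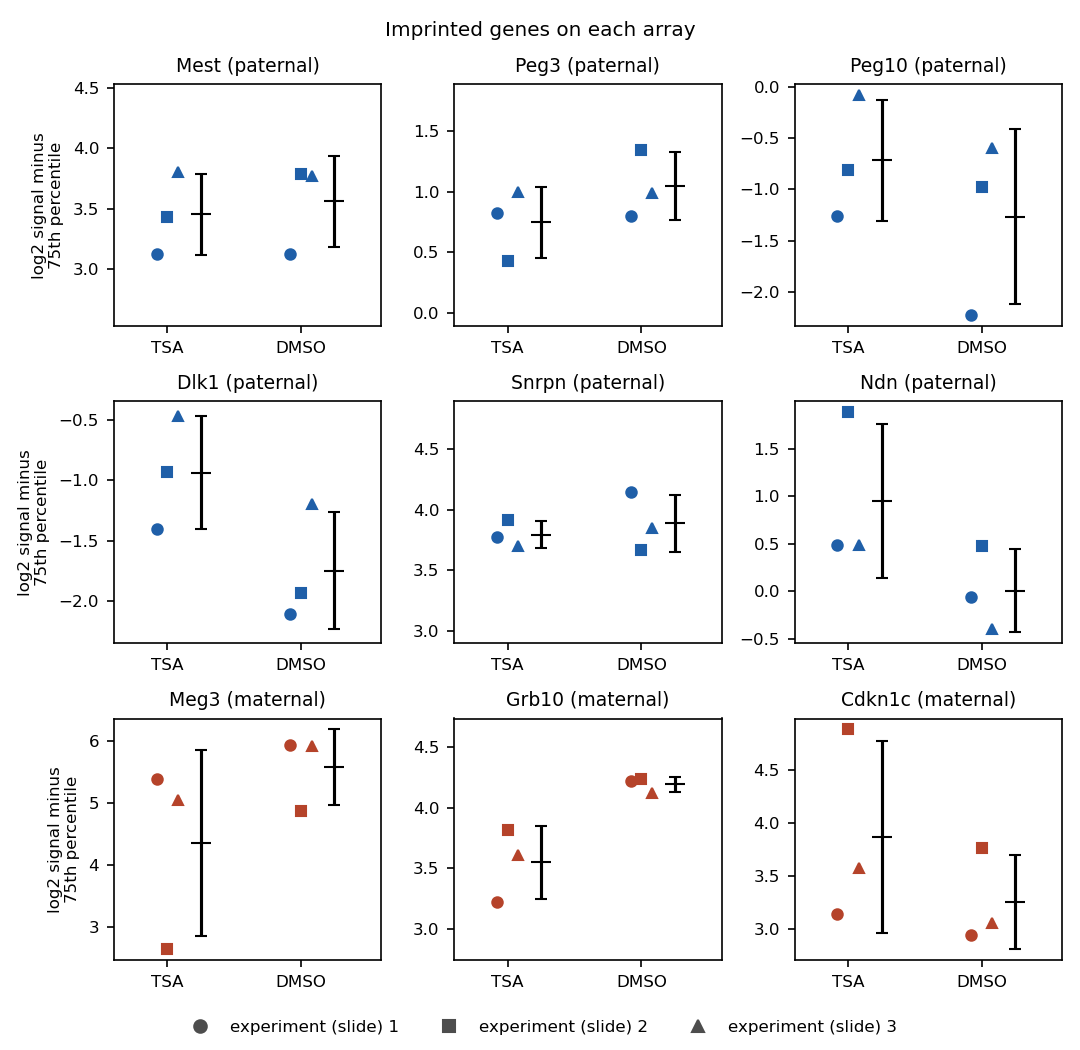
Level of each imprinted gene on each array (log2 processed signal minus the 75th percentile of the array), with TSA left of DMSO, paternally expressed genes in blue and maternally expressed genes in red. Marker shapes give the experiment, and the bars at the right of each group are mean ± SD (n = 3); the 2 treatments do not overlap for Ndn and Grb10, and TSA replicate 2 is the lowest point for Meg3, at 2.64, and the highest for Ndn and Cdkn1c.

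Among the maternally expressed members, Grb10, which encodes an adaptor protein that restrains insulin and growth factor signalling, had the lowest unadjusted p. Its levels were 3.22, 3.82 and 3.61 in TSA replicates 1, 2 and 3, against 4.22, 4.24 and 4.12 in DMSO replicates 1, 2 and 3. All 3 TSA arrays lay below all 3 DMSO arrays, which held for 8.29% of all tested genes. The difference was -0.64 ± 0.23 (95% interval -1.18 to -0.11, adjusted p = 0.312), with experiments 1, 2 and 3 at -1.0, -0.42 and -0.51. The other Grb10 probes gave -1.08 ± 0.34 (adjusted p = 0.251) and -0.62 ± 0.24 (adjusted p = 0.376), so all 3 probes had a lower mean in TSA. Weighting of arrays by their distance from their group was the one alternative in which a member passed (Grb10, -0.63, adjusted p = 0.0313). In that setting 2099 of the 28160 tested probes were higher and 862 lower. The weights of TSA replicates 1, 2 and 3 were 1.02, 0.0801 and 6.99, so replicate 3 carried most of the TSA group.

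Meg3, a long noncoding RNA made from the maternal allele of the Dlk1-Dio3 domain, had the widest spread of the members. Its brightest probe read 5.38, 2.64 and 5.04 in TSA replicates 1, 2 and 3, against 5.93, 4.88 and 5.92 in DMSO replicates 1, 2 and 3. The groups overlapped, and TSA replicate 2 deviated by -2.57 from the mean of the other TSA arrays, while DMSO replicate 2 deviated by -1.05 from the other DMSO arrays. The difference was -1.22 ± 0.74 (95% interval -3.0 to 0.55, adjusted p = 0.596, and 0.172 in the blocked fit), and it was -0.37 without TSA replicate 2 (adjusted p = 0.666) and -0.72 without both arrays of slide 2 (adjusted p = 0.154). By experiment the differences were -0.55, -2.23 and -0.88, so Meg3 was lower in TSA within each of the 3 experiments. Its 5 probes gave differences of -1.24 to -0.91, shown by experiment in the plot of genes with several probes.

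TSA replicate 2 was the dimmest array, with a 75th percentile of 311 intensity units, against 670 and 885 on the other TSA arrays and 632 to 926 on the DMSO arrays. Added control RNAs lay 3.33 above the 75th percentile on it (log2), against 1.23 to 1.92 on the other 5 arrays, and its correlations with the other TSA arrays were 0.931 and 0.939, where the remaining within-treatment pairs had 0.984 to 0.990. On TSA replicate 2 the median tested gene deviated from the mean of the other TSA arrays by 0.37 (log2). Among imprinted genes that deviation was -2.85 for Kcnq1ot1 and -2.58 for Ube3a, on the side of Meg3, against 1.52 for Cdkn1c and 1.40 for Ndn. The part of this array in the differences of single genes was not tested beyond the values without it.

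Cdkn1c, the cell cycle inhibitor p57 and a maternally expressed gene of the Kcnq1 domain, had a higher mean in TSA. Its levels were 3.15, 4.88 and 3.58 in TSA replicates 1, 2 and 3, against 2.94, 3.76 and 3.06 in DMSO replicates 1, 2 and 3. The groups overlapped, and replicate 2 was the highest array of each treatment. The difference was 0.62 ± 0.48 (95% interval -0.54 to 1.78, adjusted p = 0.661, and 0.256 in the blocked fit), and 0.21, 1.12 and 0.52 in experiments 1, 2 and 3. Without TSA replicate 2 it was 0.11, and without both arrays of slide 2 it was 0.36.

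**Figure D2:**
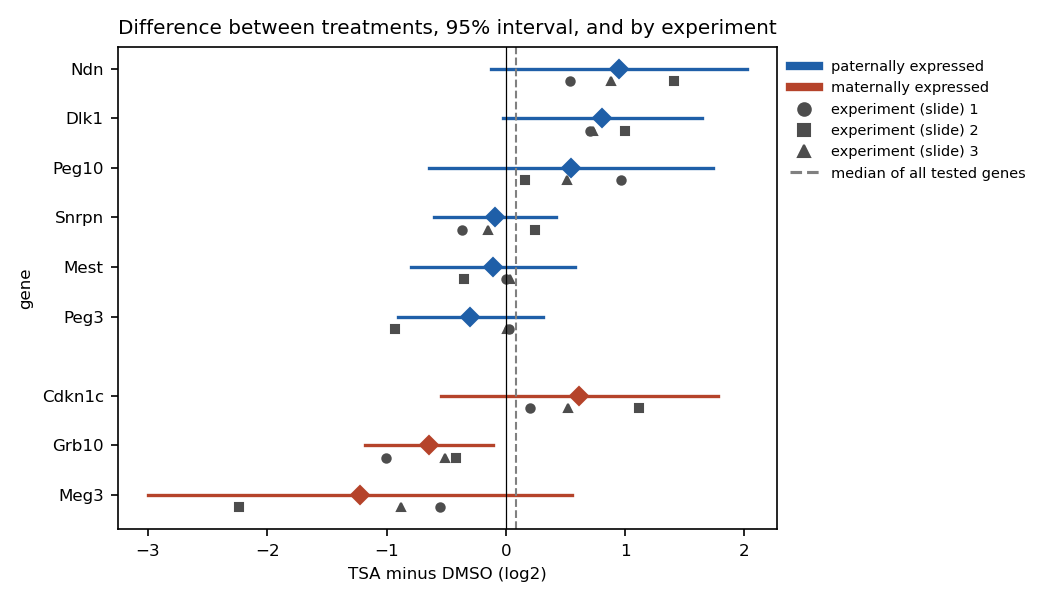
Difference between TSA and DMSO for each imprinted gene (log2), with paternally expressed genes in blue above maternally expressed genes in red. Diamonds and lines are the limma estimate with its 95% interval from the fit without the block. Grey markers below are the differences within experiments 1, 2 and 3, and the dashed line is the median of all tested genes at 0.08. Of the intervals drawn, that of Grb10 alone leaves out 0, before adjustment over all probes. In the blocked fit, not drawn, the unadjusted intervals of Dlk1, Ndn, Meg3 and Grb10 leave out 0.

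Among the paternally expressed members, Ndn and Dlk1 had the largest differences. Ndn encodes necdin, a MAGE-family protein of postmitotic neurons, and lies in the Snrpn-Ndn domain. Its levels were 0.48, 1.88 and 0.48 in TSA replicates 1, 2 and 3, against -0.06, 0.47 and -0.40 in DMSO replicates 1, 2 and 3. All TSA arrays lay above all DMSO arrays, which held for 16.4% of all tested genes, though the lowest TSA array and DMSO replicate 2 differed by little. The difference was 0.95 ± 0.45 (95% interval -0.13 to 2.02, adjusted p = 0.495, and 0.122 in the blocked fit), with 0.54, 1.41 and 0.88 in experiments 1, 2 and 3. It was 0.48 without TSA replicate 2 and 0.71 without both arrays of slide 2.

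Dlk1, a membrane protein related to Notch ligands that marks progenitor cells, read -1.41, -0.93 and -0.47 in TSA replicates 1, 2 and 3, against -2.11, -1.93 and -1.20 in DMSO replicates 1, 2 and 3. Its groups overlapped because experiment 3 was the highest in both treatments. The difference was 0.81 ± 0.35 (95% interval -0.02 to 1.64, adjusted p = 0.439, and 0.0999 in the blocked fit). Within experiments it was 0.70, 1.0 and 0.73, the narrowest range among the 6 members that differed the same way in each experiment, and leaving out 1 array at a time gave 0.58 to 1.08.

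Peg10, a gene derived from a retrotransposon and needed for the placenta, varied mainly between experiments. Its levels were -1.26, -0.81 and -0.09 in TSA replicates 1, 2 and 3, against -2.23, -0.97 and -0.60 in DMSO replicates 1, 2 and 3. The groups overlapped, and within each experiment the TSA array was the higher, by 0.97, 0.16 and 0.51. The difference of 0.55 ± 0.50 (95% interval -0.64 to 1.74, adjusted p = 0.689, and 0.272 in the blocked fit) was 0.07 without DMSO replicate 1.

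Mest, Peg3 and Snrpn had means close to each other in the treatments. Mest, an enzyme of the hydrolase fold made in embryonic mesoderm, read 3.13, 3.44 and 3.80 in TSA replicates 1, 2 and 3, against 3.13, 3.79 and 3.77 in DMSO replicates 1, 2 and 3, a difference of -0.11 ± 0.29 (95% interval -0.79 to 0.58, adjusted p = 0.893). Snrpn, a protein of the splicing machinery, read 3.77, 3.92 and 3.70 in TSA replicates 1, 2 and 3, against 4.14, 3.67 and 3.85 in DMSO replicates 1, 2 and 3, a difference of -0.09 ± 0.21 (95% interval -0.60 to 0.42, adjusted p = 0.876). Snrpn had the smallest SD over the 6 arrays of all members, 0.17. Peg3, a zinc finger protein, read 0.82, 0.42 and 0.99 in TSA replicates 1, 2 and 3, against 0.80, 1.35 and 0.99 in DMSO replicates 1, 2 and 3, a difference of -0.30 ± 0.25 (95% interval -0.91 to 0.31, adjusted p = 0.675). Experiment 2 gave -0.93 for Peg3, while experiments 1 and 3 gave 0.02 and 0.01. Of these 3 intervals, that of Peg3 reaches farthest from 0, at -0.91 on the log2 scale.

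**Figure D3:**
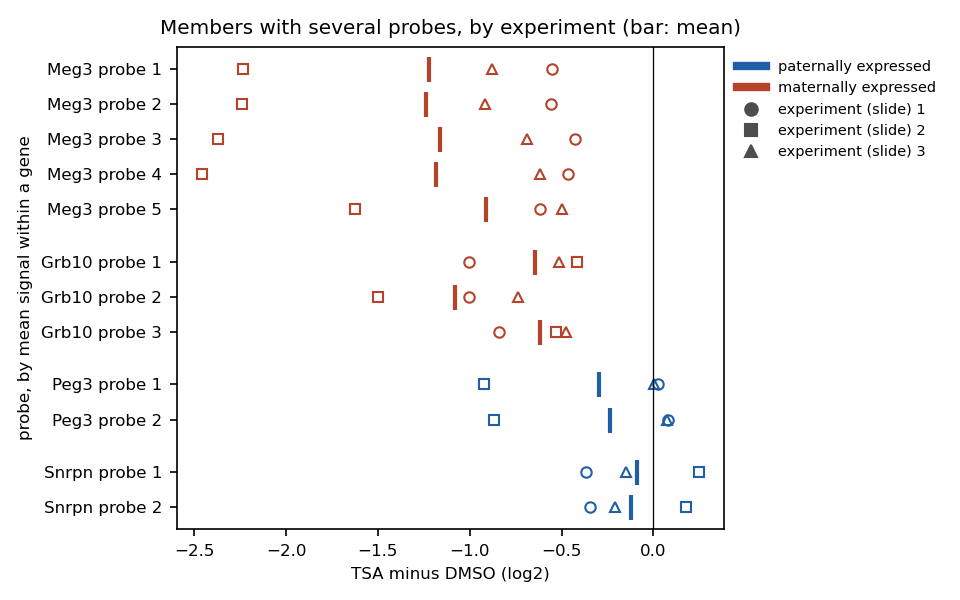
Difference between TSA and DMSO (log2) for each probe of the 4 imprinted genes with several probes, ordered by mean signal within a gene, in blue for paternally and red for maternally expressed genes. Bars are means and open markers are experiments 1, 2 and 3; all 5 Meg3 probes and all 3 Grb10 probes are below 0 in each experiment, and the paired probes of Peg3 and of Snrpn lie close together.

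Taken by expressed allele, the paternally expressed members had a median difference of 0.23 and the maternally expressed members one of -0.64, where the median over all tested genes was 0.08. In experiments 1, 2 and 3 the paternal medians were 0.28, 0.20 and 0.27, and the maternal medians -0.55, -0.42 and -0.51. All tested genes had medians of -0.028, 0.305 and 0.027 in these experiments. The paternal median of experiment 2 was thus below that of all tested genes. Of the 6 paternally expressed members, 3 were higher in TSA in every experiment (Peg10, Dlk1 and Ndn) and 0 lower. Of the 3 maternally expressed members, 1 was higher (Cdkn1c) and 2 lower (Meg3 and Grb10) in every experiment. Over all tested genes 32.6% were higher and 21.4% lower in every experiment. With 3 maternally expressed genes the median is the value of 1 gene, and no test was made of the members as a group. That gene was Grb10 for the median of -0.64 and in experiments 2 and 3. It was Meg3 in experiment 1 and without TSA replicate 2. Leaving out TSA replicate 2 gave a maternal median of -0.37, and the paternal median was 0.05 without DMSO replicate 1, 0.09 without TSA replicate 3, and 0.35 to 0.44 without TSA replicate 1, DMSO replicate 2 or DMSO replicate 3.

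A list of 45 other imprinted genes, 40 of them tested, had medians of the same sign for both alleles. Its 20 tested paternally expressed genes had a median difference of 0.27 and its 20 tested maternally expressed genes one of 0.25, and 0 of the 40 rose or fell over all genes, with 8 at an unadjusted p under 0.05 (limma), where 14.9% of all tested genes had one. In the blocked fit 1 of the 40 rose, beside 3.19% of all tested genes. Without TSA replicate 2 another 1 rose, where 575 of the 28160 tested probes were higher. The medians without that array were 0.26 for the paternally and 0.04 for the maternally expressed genes. Without both arrays of slide 2 the medians were 0.32 and 0.10.

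**Figure D4:**
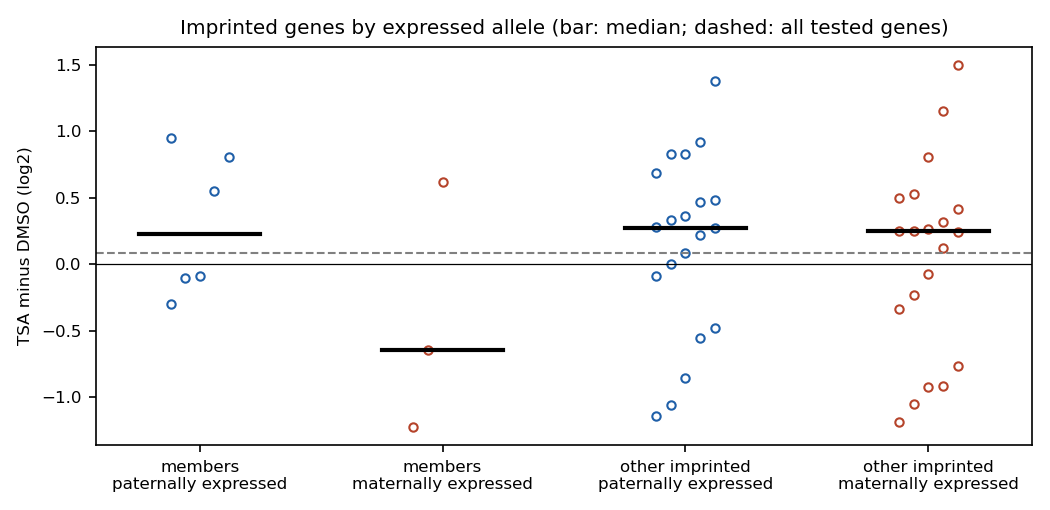
Difference between TSA and DMSO (log2) of each tested imprinted gene, with the 10-gene set at the left and the other imprinted genes at the right, split by expressed allele. Bars are medians (0.23 and -0.64 for the set, 0.27 and 0.25 for the others), and the dashed line is the median of all tested genes at 0.08.

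The Dlk1-Dio3 domain carries its protein-coding genes on the paternal and its long noncoding RNAs on the maternal allele. Beside Dlk1 (0.81) and Meg3 (-1.22), the domain gave values for Rian, a maternally expressed noncoding RNA downstream of Meg3, and Dio3, a paternally expressed enzyme that inactivates thyroid hormone. Rian read 1.31, 0.65 and 0.94 in TSA replicates 1, 2 and 3, against 2.02, 1.94 and 1.70 in DMSO replicates 1, 2 and 3. All 3 TSA arrays lay below the DMSO arrays, with a difference of -0.92 ± 0.24 (adjusted p = 0.171, and 0.102 in the blocked fit) that was -0.76 without TSA replicate 2. Dio3 gave 0.48 ± 0.28 (adjusted p = 0.580), and 0.25 without TSA replicate 2. Both noncoding RNAs were thus lower, and both coding genes higher, in TSA within each of the 3 experiments, and 0 of these 4 genes passed.

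**Figure D5:**
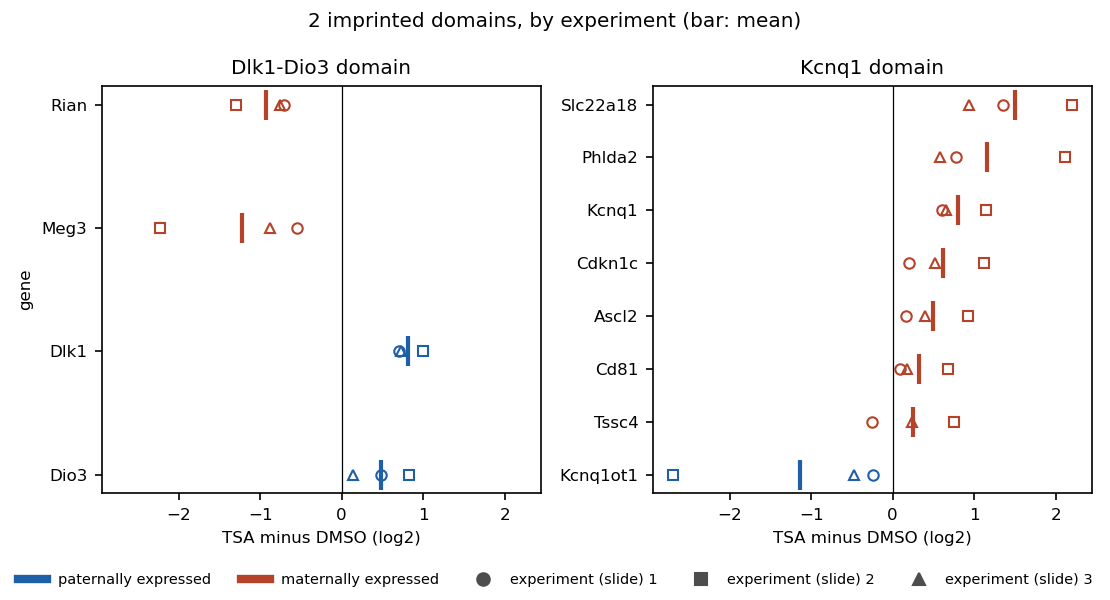
Difference between TSA and DMSO (log2) for the tested genes of the Dlk1-Dio3 and Kcnq1 domains, in blue for paternally and red for maternally expressed genes. Bars are means and open markers are experiments 1, 2 and 3. The noncoding RNAs Meg3, Rian and Kcnq1ot1 lie below 0 in each experiment. Experiment 2 lies farthest from 0 for every gene shown.

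In the Kcnq1 domain, the paternal allele makes the noncoding RNA Kcnq1ot1, which silences neighbouring genes in cis. Cdkn1c and its neighbours are listed here as maternally expressed, which was not measured in these cells. All 7 tested genes of the domain listed as maternally expressed had higher means in TSA than in DMSO (median difference 0.62). Of all 14530 tested genes, 8445 had a higher mean in TSA. In every experiment 6 of the 7 were higher, beside 32.6% of all tested genes, while 0 passed. Without TSA replicate 2 the median was 0.18, and 6 of the 7 were positive, with Tssc4 at -0.10. Without both arrays of slide 2 the median was 0.36, and 6 of the 7 were positive. Slc22a18, a transporter, read -0.25, 0.51 and -0.65 in TSA replicates 1, 2 and 3, against -1.60, -1.69 and -1.59 in DMSO replicates 1, 2 and 3, with no overlap. It gave 1.50 ± 0.32 (adjusted p = 0.100, and 0.0755 in the blocked fit) and was the gene that passed without TSA replicate 2 (1.18, adjusted p = 0.0371), while its second probe gave 0.67 ± 0.33. Phlda2, a brake on placental growth, gave 1.16 ± 0.40 (adjusted p = 0.299), and its levels of 2.65, 3.91 and 2.47 in TSA replicates 1, 2 and 3 lay above the 1.87, 1.80 and 1.89 of DMSO replicates 1, 2 and 3. Kcnq1, a potassium channel, gave 0.81 ± 0.54, Ascl2, a trophoblast transcription factor, 0.50 ± 0.32, Cd81, a tetraspanin, 0.32 ± 0.26 and Tssc4 0.24 ± 0.35. Without TSA replicate 2 these were 0.26 for Kcnq1, 0.18 for Ascl2 and 0.08 for Cd81, and 0.70 for Phlda2. Without both arrays of slide 2 they were 0.63 for Kcnq1, 0.28 for Ascl2, 0.14 for Cd81 and 0.68 for Phlda2.

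Kcnq1ot1 went the other way in mean. Its brightest probe read 1.0, -1.92 and 0.86 in TSA replicates 1, 2 and 3, against 1.23, 0.78 and 1.33 in DMSO replicates 1, 2 and 3, a difference of -1.14 ± 0.77 (adjusted p = 0.625). The difference was -0.19 without TSA replicate 2, and experiments 1, 2 and 3 gave -0.24, -2.70 and -0.48. Of its 6 probes, 4 were tested and all 4 had a lower mean in TSA.

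Igf2, the paternally expressed growth factor of the domain it shares with H19, varied more between experiments than within them. It read -0.74, 1.03 and 2.49 in TSA replicates 1, 2 and 3, against -0.63, 1.21 and 2.45 in DMSO replicates 1, 2 and 3. The SD over replicates was 1.61 in TSA and 1.55 in DMSO, while the difference was -0.08 ± 1.02 (adjusted p = 0.978), and -0.11, -0.18 and 0.04 within experiments 1, 2 and 3. Its second probe gave -0.05.

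Neighbours of the other members were also measured, and 0 of them passed. In the Snrpn-Ndn domain, the paternally expressed Magel2, Mkrn3 and Peg12 gave 0.28 ± 0.33, 0.36 ± 0.19 and 0.33 ± 0.42, and the maternally expressed Atp10a gave 0.26 ± 0.21. Without TSA replicate 2, Magel2 was 0.48 and Peg12 0.11. Ube3a, the ubiquitin ligase lost in Angelman syndrome, gave -1.05 ± 0.70 (adjusted p = 0.620), and -0.19 without TSA replicate 2. In the Peg10 domain, Sgce, which is transcribed divergently from Peg10, gave 0.47 ± 0.33, and the maternally expressed Calcr, Asb4 and Ppp1r9a gave -0.77 ± 0.35, -0.34 ± 0.53 and -1.18 ± 0.63. By their brightest probes, both paternally expressed genes of that domain were therefore higher and all 3 maternally expressed ones lower. This held in mean and within each experiment, without a call (lowest adjusted p = 0.475). The second Asb4 probe gave -0.10, with -0.71, 0.34 and 0.06 in experiments 1, 2 and 3. Without TSA replicate 2, Sgce was 0.27, Asb4 -0.65 and Ppp1r9a -0.43 by the brightest probes. Next to Mest, Copg2 gave -0.08 ± 0.23 (-0.26 without TSA replicate 2) and Klf14 0.53 ± 0.18 (adjusted p = 0.305), next to Grb10, Ddc gave 0.09 ± 0.20, and next to Peg3, Usp29 gave 0.27 ± 0.47 (0.80 without TSA replicate 2), while Zim1 was not well above background on any array.

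Outside these domains, Rasgrf1, a paternally expressed activator of Ras, had the lowest p of the 40. It read -2.24, -2.53 and -2.89 in TSA replicates 1, 2 and 3, against -3.55, -4.10 and -4.13 in DMSO replicates 1, 2 and 3. The groups did not overlap, and the difference was 1.38 ± 0.27 (adjusted p = 0.0847), with 1.32, 1.57 and 1.24 in experiments 1, 2 and 3. In the blocked fit it rose (adjusted p = 0.0425), the 1 gene of the list that did. Nnat, a small membrane protein of neural tissue, gave 0.92 ± 0.33 (adjusted p = 0.334, and 0.60 as the difference without TSA replicate 2), Slc38a4, an amino acid transporter of placenta, 0.83 ± 0.26 (adjusted p = 0.259), and Dcn, the matrix proteoglycan decorin, which is also in the list of fibroblast markers, -0.91 ± 0.24 (adjusted p = 0.177).

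Of 10 factors that protect imprints, 0 rose or fell (limma), and 1, Dppa3, had an unadjusted p under 0.05. Dppa3, which shields methylation in the early embryo, gave 1.62 ± 0.63 (adjusted p = 0.377). Zfp57 and Zfp445, zinc finger proteins that bind imprinted control regions, gave 0.14 ± 0.27 and -0.68 ± 0.65, and their corepressor Trim28 gave 0.10 ± 0.32. Dnmt1, the maintenance methyltransferase, and its partner Uhrf1 gave 0.43 ± 0.25 and 0.48 ± 0.35. Ctcf, Smchd1, Arid4a and Ehmt2 gave -0.28 ± 0.20, -0.39 ± 0.38, -0.32 ± 0.51 and 0.09 ± 0.32. Without TSA replicate 2 the sign turned for Zfp445 (0.06), Smchd1 (0.02), Arid4a (0.27), Trim28 (-0.22) and Ehmt2 (-0.23), while Dnmt1 was 0.23 and Uhrf1 0.13.

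Pluripotency and neural markers were measured in these cells, with all 8 naive and all 6 primed pluripotency markers and 6 of 7 neural progenitor markers tested. Summed levels, in multiples of the 75th percentile, were 230 to 388 in TSA and 183 to 200 in DMSO for naive, 129 to 166 in TSA and 119 to 177 in DMSO for primed, and 6.45 to 8.34 in TSA and 8.21 to 9.70 in DMSO for neural markers. Such sums add unlogged signals, so the brightest genes weigh most: Dppa5a among naive, Pou3f1 among primed and Nes among neural markers. Means were higher in TSA for 6 of 8 naive, 2 of 6 primed and 3 of 6 tested neural markers. Of these lists 0 markers passed, and 1 neural marker rose in the blocked fit. Primitive streak and mesoderm markers summed to 15.1 to 73.3 in TSA and 5.57 to 19.5 in DMSO, with the highest sum of each treatment on replicate 2, where Cdkn1c and Ndn were also highest. All 9 genes of that list were tested, 0 passed, and 5 rose in the blocked fit, beside 3.19% of all tested genes. All 9 had a higher mean in TSA, and 8 were higher in every experiment, beside 32.6% of all tested genes. Trophoblast markers summed to 3.71 to 16.6 in TSA and 2.08 to 8.65 in DMSO, with 5 of 7 named markers tested, 0 passing, 2 that rose in the blocked fit, and Elf5 and Tpbpa too dim to be tested. Fibroblast markers summed to 10.9 to 15.3 in TSA and 5.44 to 8.05 in DMSO, with 7 of 8 tested, 0 passing, 1 that rose in the blocked fit, and Lum not above background on any array. Primitive and visceral endoderm markers summed to 1.51 to 4.98 in TSA and 0.946 to 3.94 in DMSO, with 7 of 9 tested, 0 passing in either fit, and Ttr and Apoa1 not above background on any array. Thy1 was the brightest fibroblast marker, and 5 of the 7 tested fibroblast markers had a higher mean in TSA. The part of these cell types in the values of imprinted genes was not tested.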

How the data were processed

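All 6 arrays were analysed, 3 of TSA and 3 of DMSO samples. Per the file headers, the deposited intensity values are Feature Extraction output (Agilent, version 10.7 by the submitters' processing notes), whose processed signal was background-subtracted within the array and not scaled between arrays. The authors also deposited a series table of log2 values, whose normalization is not given in the sources used here; its columns correlate at 0.982 to 0.992 with log2 of the processed signal. Without control spots and the 57 to 84 outlier spots of an array, log2 processed signals were set relative to their array's 75th percentile, and spots of a probe were averaged. Probes well above background on at least 3 of 6 arrays (28160 of 41174) were tested with limma 3.58.1 in R 4.3.3 (lmFit and eBayes, two-sided, Benjamini-Hochberg over all tested probes, threshold 0.05), which was tested on simulated data. The simulated arrays had independent noise, with no slide effect and no deviating array, so the simulation cannot show how the test behaves with these. Probes were named by the RefSeq identifier, or the symbol, in their identifier field through the reference table (27484 with 1 gene, 13690 with none, 0 with several), and a gene's value is its tested probe with the highest mean. Array probes follow an older genome build than the table, so the only positions given are those of the table's own promoter windows.

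Samples are described as independent experiments, and the p-values rest on their spread. Replicate numbers are also slide numbers. Deviations from the group means had correlations of 0.484, 0.614 and 0.585 between TSA and DMSO arrays sharing a slide and of -0.568 to 0.0916 otherwise, so the numbers pair the samples, but errors, intervals and calls come from the fit without the block unless the blocked fit is named. Members and lists were chosen with earlier results of these data known. Named were all members, all listed genes of their domains, all imprint-protecting factors and, elsewhere, genes past the threshold with or without the block and the 4 with the lowest p. Files were read and figures drawn in Python 3.11.15 (numpy 2.4.6, pandas 2.3.3, matplotlib 3.10.9). Alternatives were other background corrections, normalizations, filters, moderation, array weights, the block, the authors' table, the mean over a gene's probes, and arrays or slide 2 left out; normexp (offset 50) used median spot signals. The number of arrays limits the precision.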

Additional observations from a re-analysis of the deposited data

How the results depend on the processing

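Cdkn1c, Dlk1, Meg3, Ndn, Peg10 and Grb10 kept their direction under all 18 alternatives. Grb10 passed with array weights (-0.63, adjusted p = 0.0313), the 1 member to do so under any alternative. That setting called 2099 probes higher and 862 lower. Mest turned positive with array weights (0.19) and without slide 2 (0.0183), and Peg3 without slide 2 (0.0151). Leaving out 1 array at a time gave -0.322 to 0.057 for Mest, positive without TSA replicate 1 or DMSO replicate 2, and -0.20 to 0.0371 for Snrpn, positive without DMSO replicate 1. The paternal median moved to 0.10 with normexp, 0.14 with median centring, 0.17 in the authors' table and 0.37 without slide 2, and was 0.0527 to 0.44 with 1 array left out. The maternal median was -0.74 with median centring, -0.72 without slide 2, -0.78 with the mean over a gene's probes, and -0.68 to -0.37 with 1 array left out.

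Over all probes, 259 were higher and 10 lower. The counts were 52 higher with normexp, 148 with quantile normalization, 133 with median centring, 142 in the authors' table, 58 higher and 0 lower with no filter, 617 and 41 with the replicate block, and 2099 and 862 with array weights, which gave TSA replicate 2 a weight of 0.0801 and TSA replicate 3 one of 6.99. Without slide 2 both counts were 0, and with 1 array left out they were 0 to 575 higher and 0 to 54 lower, above 0 only without TSA replicate 2. The replicate block raised the count of other imprinted genes that rose to 1, as did leaving out TSA replicate 2, both chosen after seeing the data. No other call on imprinted genes changed with the block. The cause of these shifts was not tested.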

Other observations

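The genes whose profile over the 6 arrays was nearest to that of a member were found for the 3 members with the largest SD, by the root mean square difference of mean-centred log2 levels among 14511 genes. For Meg3 they were Cep290, a centrosomal protein of cilia (0.12), Clk1, a kinase of splicing factors (0.12), and Ptchd1, a membrane protein (0.14). For Ndn they were Tap1, a peptide transporter of antigen presentation (0.06), Cx3cl1, the chemokine fractalkine (0.06), and Galnt10, a glycosyltransferase (0.07). For Peg10 they were Tfpi, an inhibitor of coagulation (0.12), Tgfbi, a secreted matrix protein (0.18), and Sfmbt2, itself a paternally expressed imprinted gene (0.20). Likeness over 6 arrays, of which TSA replicate 2 stands apart, is a description of these libraries.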
